A study of Homo sapiens with 66 samples.

Results

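The interferon-stimulated genes described here are 45 protein-coding genes chosen by symbol, out of the 57992 gene identifiers counted in every library. They were taken as a module because each is known to be transcribed in answer to interferon. Each symbol matched exactly 1 identifier. The study profiled RNA from 11 lines of acute myeloid leukemia (AML). These were THP-1, OCI-AML3, OCI-AML2, NOMO-1, NB-4, MV-4-11, MONO-MAC-6, MOLM-13, KASUMI-1, HL-60 and F-36P. Each line was sequenced untreated and after 24 hours of etoposide at its own IC50, the inhibitory concentration read from a viability assay of that line. There were 3 libraries per group and 66 in all. Etoposide is a topoisomerase II inhibitor that leaves DNA double-strand breaks. The concentration differed between lines, so a difference between lines is also a difference in dose, and the 2 cannot be told apart.

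Each line is a single established culture from a single patient, no normal blood cells were profiled, and each RNA sample came from pooled wells. The labels do not say that the 3 libraries of a group came from separate cultures, while the methods describe experiments in general as biological replicates. The p-values measure the spread between these samples. In bulk RNA a transcript that is expressed by fewer cells and one that is expressed at a lower level per cell cannot be told apart.

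Type I interferons are secreted proteins that bind a receptor on the cell surface and activate the kinases JAK1 and TYK2. These phosphorylate STAT proteins such as STAT2, which join IRF9 in the complex ISGF3. ISGF3 binds the interferon-stimulated response element (ISRE), whereas the answer to interferon gamma runs mainly through the gamma-activated site (GAS). Interferon regulatory factors such as IRF1 and IRF7 recognise ISRE-like sequences too. The products block viruses at many steps and include sensors of foreign RNA, enzymes that degrade RNA, membrane proteins that stop viral entry and release, and the ubiquitin-like modifier ISG15 with its enzymes. Cells with damaged DNA can also transcribe these genes.

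The RefSeq promoter windows (GRCh38.p14, 250 bases before to 50 bases after the start site) of the members were searched on both strands for 2 motifs. The ISRE core was searched as GAAANNGAAA, which reads TTTCNNTTTC on the other strand, and the GAS as TTCNNNGAA, which reads the same on both. Matches of the 2 overlapped each other in 6 member windows. Windows were found for 35 of the 45 members, 46 windows in all. The ISRE core was present in 28 of the 46 windows (60.9%), belonging to 24 members, against 1255 of all 35114 windows (3.57%). The GAS was present in 11 of the 46 (23.9%), belonging to 10 members, against 7.66% of all windows. A match is a description of letters and not a measured binding site. No window was found for GBP2, GBP5, IFIT2, IFITM2, IRF7, MX2, OAS2, OASL, TRIM22 and USP18. The stretches below are shown to set members called induced by etoposide in most lines (OAS3, IFI6 and LGALS3BP), members of the core antiviral set (IFIT1 and ISG15) and members called in a single line (BST2, IFITM3 and TRIM5) side by side. Capitals mark every match of the ISRE core in the stretch, including matches that overlap each other, and each stretch is read 5′ to 3′ along the gene.
OAS3 (chr12:112938437-112938473, + strand): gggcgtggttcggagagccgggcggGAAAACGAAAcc
IFI6 (chr1:27672251-27672310, - strand): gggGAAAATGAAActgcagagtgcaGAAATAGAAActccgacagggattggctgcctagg
LGALS3BP (chr17:78979947-78980006, - strand): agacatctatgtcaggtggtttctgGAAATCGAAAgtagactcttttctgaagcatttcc
IFIT1 (chr10:89392495-89392554, + strand): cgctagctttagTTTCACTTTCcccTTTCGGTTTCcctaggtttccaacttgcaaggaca
ISG15 (chr1:1013365-1013424, + strand): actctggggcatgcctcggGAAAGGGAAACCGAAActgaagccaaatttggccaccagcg
BST2 (chr19:17405720-17405779, - strand): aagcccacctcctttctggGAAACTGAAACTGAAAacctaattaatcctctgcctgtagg
IFITM3 (chr11:320861-320920, - strand): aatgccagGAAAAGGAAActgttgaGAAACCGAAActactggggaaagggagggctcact
TRIM5 (chr11:5685075-5685126, - strand): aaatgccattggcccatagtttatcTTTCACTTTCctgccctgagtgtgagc

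The core was present both in the members that responded widely and in those that barely responded. Among members called induced in 7 or more of the 10 lines described below, 8 of the 9 with a window held it. The count was 12 of 22 for members called in 2 to 6 lines and 4 of 4 for those called in 1 line or none.

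Libraries held 17997404 to 24101670 reads on genes (median 20241014), and no pair of libraries of a group agreed within sampling noise. The pan-leukocyte and myeloid genes PTPRC, SPI1 and CD33 were expressed in every line. F-36P also expressed the erythroid gene GATA1 (262 CPM, the read count scaled to library size with TMM factors), with MPO, a myeloid granule enzyme, at 1.01 CPM. Untreated NOMO-1 and NB-4 had GATA1 at 14.9 and 3.61 CPM, and the other lines at most 0.541 CPM. MPO was low as well in untreated OCI-AML3 (3.04 CPM), MV-4-11 (9.61 CPM) and THP-1 (10.3 CPM). CDKN1A, the p53 target used as a check of DNA damage, was called induced in 10 lines, whereas MDM2, another p53 target on the same list, was called in MOLM-13, MV-4-11 and OCI-AML3 and not in the other 7. OCI-AML2 called neither, and there CDKN1A went from 45.8 to 76.1 CPM, a log2 change of 0.73 that passed the test (adjusted p = 0.000289) but not the 2-fold limit. The study discarded its etoposide-treated OCI-AML2 data for failing quality control, so OCI-AML2 is given apart from the other 10 lines below. The etoposide library 2 of F-36P stood apart from the other 2 of its group, with 3982 CPM summed over the 45 members against 8609 and 11290 CPM.

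Untreated lines differed in how much of the module they expressed. The level used was the mean over the 45 members of log2(CPM + 1), written with its SD over 3 libraries. It was highest in F-36P, at 3.99 ± 0.113, followed by THP-1 at 3.62 ± 0.026, MONO-MAC-6 at 3.09 ± 0.044 and NOMO-1 at 3.02 ± 0.022. MOLM-13 at 2.59 ± 0.206 and NB-4 at 2.54 ± 0.077 came next and their libraries overlapped. OCI-AML2 at 2.38 ± 0.028, OCI-AML3 at 2.33 ± 0.033 and HL-60 at 2.27 ± 0.035 formed a run in which each line overlapped its neighbour. The lowest MOLM-13 library (2.374) also lay within the range of OCI-AML2 (2.368 to 2.417). MV-4-11 at 2.04 ± 0.0076 and KASUMI-1 at 2.01 ± 0.017 had the lowest levels. Summed over the members, the module took 1907 ± 53.1 CPM in F-36P and 448 ± 5.06 CPM in KASUMI-1. The number of members with a mean of at least 1 CPM ranged from 26 in MV-4-11 to 43 in F-36P. Between 0 members (F-36P and THP-1) and 6 members (HL-60) had no read in any of a line's 3 untreated libraries.

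**Figure D1:**
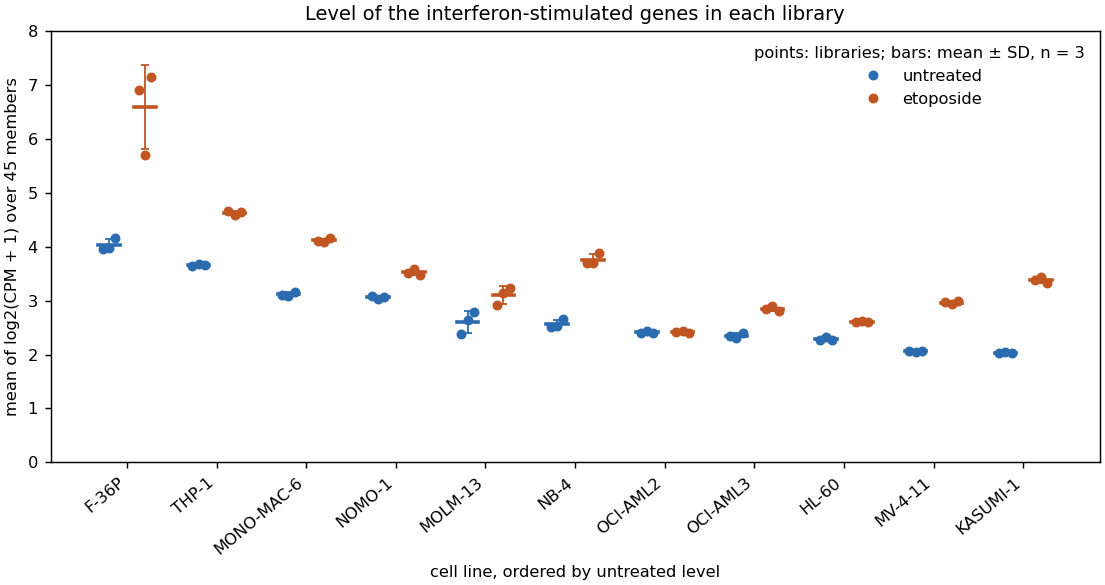
Mean log2(CPM + 1) over the 45 members in each of the 66 libraries, with cell lines on the horizontal axis, points for single libraries, bars for the mean ± SD of 3 and colours for untreated and etoposide. F-36P and THP-1 had the highest untreated levels, the etoposide libraries lay above the untreated ones in every line but OCI-AML2, and 1 etoposide library of F-36P lay below the other 2.

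All 45 members differed between the 11 untreated lines in edgeR's quasi-likelihood F-test with Benjamini-Hochberg adjustment, as did 99.4% of all genes tested, so a difference as such was not particular to the module. Each line was then set against the mean of the other 10 lines, and a gene was called higher or lower where the adjusted p was below 0.05 and the fold above 2. GBP1, GBP4, GBP5, IFI27, IFI44L, IFITM1 and OAS2 had no read in at least 1 untreated line, where a level on a log scale is not defined. Their contrasts are less certain, and the counts over the other 38 members are given below. In F-36P 32 of 45 members were higher and 2 lower (21.1% and 14.1% of all genes tested). THP-1 had 28 higher and 0 lower (23.1% and 6.94%). In MONO-MAC-6 the counts were 19 and 2 (19.9% and 7.12%), and in NOMO-1 they were 17 and 3 (23.9% and 4.72%). These 4 lines had more members higher than lower, whereas in 6 of the other 7 the balance was the opposite. KASUMI-1 had 6 higher and 20 lower (17.8% and 10.9%), MV-4-11 had 4 and 19 (11.9% and 7.56%), and HL-60 had 6 and 16 (12.2% and 10.1%). OCI-AML2 had 5 higher and 14 lower (16.9% and 6.93%), NB-4 had 9 and 13 (13.7% and 9.37%), and OCI-AML3 had 5 and 12 (17.0% and 7.31%). MOLM-13 was the remaining line, with 9 higher and 5 lower (15.0% and 4.94%). Over the 38 members with reads in every line, the counts of higher members were 26 in F-36P, 22 in THP-1, 14 in MONO-MAC-6, 13 in NOMO-1 and 2 to 7 elsewhere, and those of lower members differed by at most 2 from the counts over all 45. In F-36P, THP-1 and MONO-MAC-6 the share of members called higher was well above the share of all genes. NOMO-1 exceeded it by less (37.8% of members against 23.9%). In KASUMI-1, MV-4-11, HL-60, OCI-AML2, OCI-AML3 and NB-4 the share called lower was well above that of all genes. In MOLM-13 it was too, though on 5 members only (11.1% against 4.94%).

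Single members departed from the order of the lines. LGALS3BP, a secreted glycoprotein that binds galectins, had the largest range of untreated means, from 254, 224 and 217 CPM in F-36P to 0.247, 0.424 and 0.341 CPM in MV-4-11. NB-4 was next below F-36P with 46.7, 50.3 and 54.2 CPM, so the libraries of F-36P lay above all others. TRIM22, a ubiquitin ligase that restricts retroviruses, was highest in lines where the module as a whole was low. Its levels were 166, 168 and 166 CPM in OCI-AML2 and 128, 130 and 122 CPM in MV-4-11, against 0.203, 0.367 and 0.111 CPM in KASUMI-1. UBE2L6, the conjugating enzyme of the ISG15 pathway, was at 141, 127 and 119 CPM in F-36P and at 0, 0.0483 and 0.0528 CPM in HL-60. The 3 HL-60 libraries were thus at or near 0 for this enzyme, while NOMO-1, the second line, had a mean of 54.8 CPM.

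MX2, a GTPase that blocks nuclear entry of lentiviruses, was at 145, 141 and 128 CPM in NB-4 and 126, 130 and 128 CPM in MONO-MAC-6. These 2 lines overlapped, whereas KASUMI-1 had a mean of 0.633 CPM. IFITM1, a membrane protein that hinders viral entry, was highest in HL-60 at 76.1, 81.0 and 83.1 CPM and had no read in the 3 untreated OCI-AML3 libraries. BST2 (tetherin), which holds budding virus on the cell, reached a mean of 509 CPM in F-36P and was lowest in KASUMI-1 at 5.89 CPM. The members above were named for their wide range. On the log2(CPM + 1) scale the ranges of the pathway factors ran from 1.24 (STAT2) to 1.86 (IRF7). Among all members only GBP1 had a smaller range (0.842), and ISG20 came next above the factors (2.11). This scale narrows the range of low genes, and IRF7 and IRF9 were low. STAT2 means ran from 30.2 CPM in NB-4 to 72.6 CPM in MONO-MAC-6, those of IRF1 from 13.6 CPM in OCI-AML2 to 42.1 CPM, those of IRF9 from 1.23 to 4.77 CPM and those of IRF7 from 0.649 to 4.97 CPM. GBP1, an interferon gamma-inducible GTPase, had no read in the untreated libraries of 7 lines.

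**Figure D2:**
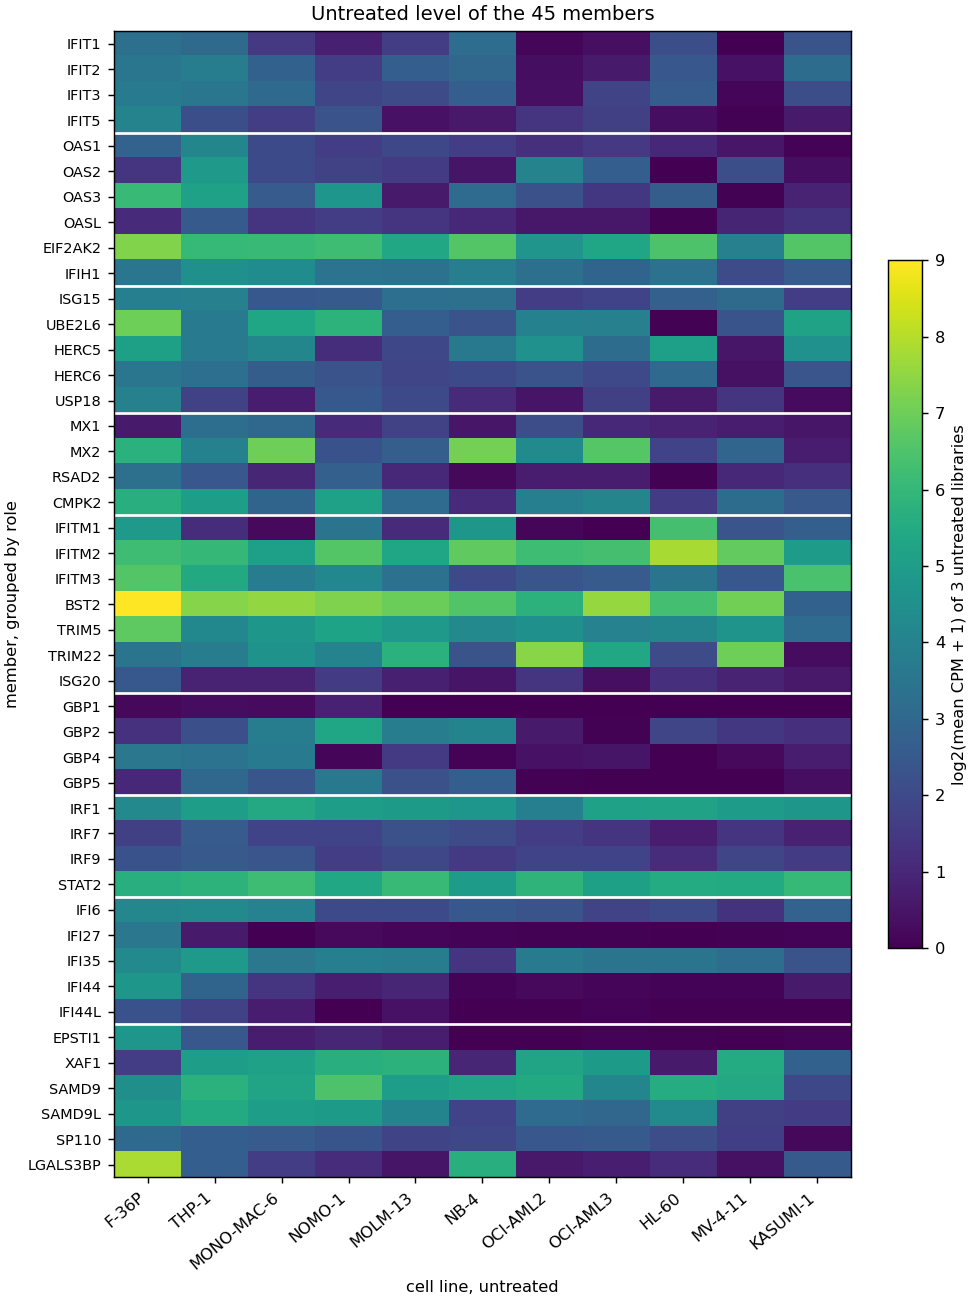
Mean untreated log2(CPM + 1) of each of the 45 members (rows, grouped by role) in the 11 cell lines (columns), with colour giving the level. The columns run from the highest module level, F-36P, to the lowest, KASUMI-1, while TRIM22, MX2 and IFITM1 peak in OCI-AML2, NB-4 and HL-60.

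After etoposide the mean log2(CPM + 1) over the members was higher in each of the 10 lines whose treated data the study kept, with no overlap between the libraries of the groups. The difference was 2.56 in F-36P, 1.34 in KASUMI-1, 1.20 in NB-4, 1.00 in MONO-MAC-6, 0.97 in THP-1 and 0.90 in MV-4-11. It was 0.50 in OCI-AML3 and MOLM-13, 0.47 in NOMO-1 and 0.33 in HL-60. On the linear scale HL-60 differed from the others, since its summed CPM overlapped between groups (769 ± 18.2 untreated, 754 ± 22.4 treated). A gene was called induced or repressed in a line where the adjusted p was below 0.05 and the fold change above 2 in edgeR's quasi-likelihood test of its 3 etoposide against its 3 untreated libraries. Over the 10 lines there were 450 pairs of a member and a line, of which 407 passed the filter on low counts and 225 were called induced. A pair could pass on the reads of 1 group alone, as IFI44L in KASUMI-1 did (0 untreated and 80 treated reads). Shares of tested pairs thus lean towards called pairs. Of all gene and line pairs tested, 11.1% were called induced and 3.96% repressed. No member was called repressed in any line, except that leaving out replicate 1 gave 2 such calls, SAMD9 in HL-60 and HERC5 in MOLM-13. With the adjusted p alone, 314 pairs were higher and 16 lower under etoposide, and the 16 ranged from -0.90 to -0.24 on the log2 scale.

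F-36P had the most members called induced, 38 of 45 with all 45 tested, and a median log2 change over tested members of 2.51. There, 24.3% of all genes were called induced and 6.67% repressed. Without etoposide library 2, 42 members were called. KASUMI-1 followed with 35 of 45 (42 tested, median 1.76), beside 14.6% induced and 6.52% repressed of all genes. In both lines the share of the 45 members called was over 3 times that of all genes. NB-4 had 29 (41 tested, median 1.81), beside 13.2% and 4.82%. MONO-MAC-6 had 28 (44 tested, median 1.13), beside 8.53% and 4.47%, and THP-1 had 28 (44 tested, median 1.22), beside 6.38% and 3.46%. MV-4-11 had 26 (39 tested, median 1.43), beside 12.5% and 2.63%. In the other 4 lines far fewer members passed. MOLM-13 had 11 (41 tested, median 0.63), beside 8.59% and 3.37% of all genes. OCI-AML3 had 11 (35 tested, median 0.72), beside 7.18% and 1.36%. NOMO-1 had 10 (42 tested, median 0.57), beside 8.34% and 4.43%, and HL-60 had 9 (34 tested, median 0.40), beside 5.34% and 1.24%. In each of these 4 lines the share of the 45 members called was over 2 times that of all genes. The median log2 change of all genes tested lay between -0.03 and 0.09 in these 10 lines.

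Markers of cell type changed beside the members in 8 of the 10 lines. Of the list of 8 markers, CD14, a monocyte surface protein, was called induced in MONO-MAC-6 (from 24.3 to 166 CPM), THP-1 (7.44 to 44.7 CPM), OCI-AML3 (5.23 to 20.8 CPM) and NOMO-1 (0.293 to 0.716 CPM). MPO was repressed in HL-60, KASUMI-1, MONO-MAC-6, NB-4 and NOMO-1, by the most in NOMO-1 (from 2069.6 to 420.4 CPM). In KASUMI-1 PTPRC was induced (32.5 to 123 CPM). In F-36P PTPRC (378 to 187 CPM, with overlapping libraries) and the fetal globin HBG1 (15.98 to 4.82 CPM) were repressed. No marker was called in MOLM-13 and MV-4-11, where 11 and 26 members were induced. The part of these changes in the members' result was not tested.

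**Figure D3:**
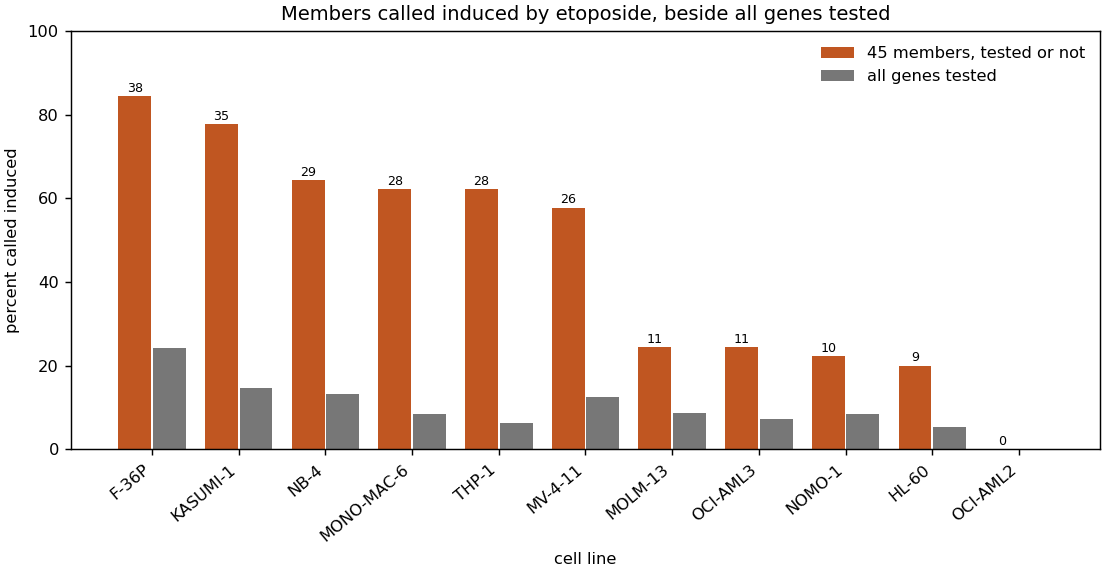
Percent of the 45 members (coloured bars, with the number called above each) and of all genes tested (grey bars) called induced by etoposide, for each cell line on the horizontal axis. The members' bar stands above that of all genes in the 10 lines from F-36P, with 38, to HL-60, with 9, and both are at 0 in OCI-AML2.

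A core subset of 12 members (IFIT1, IFIT2, IFIT3, ISG15, MX1, OAS1, OASL, IFI44, IFI44L, RSAD2, USP18 and IFI6) served to say whether a line mounted an interferon-like response. A line was said to mount none where 0 of the 12 was called induced. All 12 were called in F-36P and KASUMI-1, and 11 in MONO-MAC-6, NB-4 and THP-1. In MV-4-11 10 were called, and the other 2, IFI44 and IFI44L, were too low to be tested there. NOMO-1 had 5 of 11 tested, OCI-AML3 4 of 9, HL-60 3 of 8 and MOLM-13 3 of 11. With the adjusted p alone, 8 were higher in NOMO-1, 7 in OCI-AML3, 4 in HL-60 and 5 in MOLM-13. Thus none of the 10 lines met the rule for no response, although 4 of them called fewer than 6 of the 12. OCI-AML2 met it, with 0 of 12 called and 6 tested. In MOLM-13 the mean log2(CPM + 1) over the core subset overlapped between groups (1.72 ± 0.42 untreated, 2.16 ± 0.39 treated), as it did in no other of the 10 lines. The spread there followed the library number in both groups. Libraries 1 to 3 had 1.27, 1.79 and 2.11 untreated and 1.73, 2.27 and 2.47 treated, so each treated library lay above the untreated library of its number.

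In OCI-AML2 no gene at all was called, 0% of genes tested in either direction, so the absence of calls there was not particular to the module. The mean log2(CPM + 1) over the members was 2.41 ± 0.027 untreated and 2.42 ± 0.020 after etoposide, and the libraries of the groups overlapped. The summed CPM of the members did not overlap, at 665 ± 7.70 untreated and 707 ± 28.1 treated. Of the 34 members tested, 1 had an unadjusted p below 0.05, and DESeq2 called 0 as well. That member was TRIM22, at 165, 169 and 167 CPM untreated and 213, 224 and 194 CPM after etoposide. The groups did not overlap, but the log2 change was 0.33 ± 0.05 (SE) with an adjusted p of 0.079. OAS3, called induced in 9 of the other lines, was at 4.74, 4.07 and 2.40 CPM untreated and 4.62, 3.88 and 4.26 CPM treated. How far the quality failure or the dose of this line bears on these values was not tested.

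Among the OAS proteins, which make the 2′-5′ oligoadenylates that switch on RNase L, and the RNA sensors PKR and MDA5, 36 of 58 tested pairs over the 10 lines were induced. That is 36 of 60 pairs in all. OAS3 was called in 9 lines. In MONO-MAC-6 it was at 4.95, 4.92 and 5.69 CPM untreated and 78.6, 83.2 and 80.6 CPM after etoposide. The groups were far apart, with a log2 change of 3.96 ± 0.08 (SE) and an adjusted p of 2.2e-11. In F-36P it was at 72.9, 65.1 and 77.9 CPM untreated and 1082, 378 and 1584 CPM treated, a change of 3.82 ± 0.43 (adjusted p = 4.35e-05) with a wide spread among the treated libraries. In MOLM-13 it was at 0.147, 0.445 and 1.02 CPM untreated and 0.608, 2.46 and 1.74 CPM treated. These groups overlapped and the call was marginal (1.58 ± 0.58, adjusted p = 0.0397), though each treated library lay above the untreated library of its number. NOMO-1, with 25.4, 33.2 and 26.8 CPM untreated and 59.6, 62.1 and 43.7 CPM treated, was separated but below the 2-fold limit (0.95 ± 0.14, adjusted p = 0.000146).

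OAS2 had the largest fitted change of a member in F-36P. It was at 1.184, 1.276 and 2.505 CPM untreated and 319, 37.6 and 477 CPM treated, a log2 change of 7.38 ± 0.89 (adjusted p = 6.86e-05), with library 2 far below the others. It was called in 8 lines and was not tested in HL-60, where 1 read fell on it in 6 libraries. OAS1 was called in 8 lines, and in NB-4 rose from 1.83, 2.07 and 2.81 CPM to 28.9, 28.2 and 38.7 CPM (3.84 ± 0.18, adjusted p = 4.95e-10). In NOMO-1 its groups overlapped, at 2.11, 2.08 and 2.81 CPM against 3.68, 2.69 and 2.53 CPM (adjusted p = 0.188). EIF2AK2, which encodes PKR, was called in a single line, MV-4-11, where it was lowest untreated. It went there from 15.5, 14.7 and 15.3 CPM to 48.7, 43.4 and 46.6 CPM (1.61 ± 0.08, adjusted p = 3.11e-13). IFIH1, which encodes MDA5, was called in MONO-MAC-6, KASUMI-1 and F-36P.

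The IFIT proteins bind viral RNA ends and block its translation, and 28 of 38 tested pairs of the 4 members were induced. That is 28 of 40 pairs in all. All 4 members were called in THP-1, NB-4, MV-4-11, MONO-MAC-6, KASUMI-1 and F-36P. None of the 3 tested was called in MOLM-13. IFIT2 was called in 8 lines. In F-36P it was at 8.06, 12.1 and 13.9 CPM untreated and 301, 71.1 and 275 CPM treated (4.25 ± 0.49, adjusted p = 5.21e-05). HL-60 gave 5.48, 4.70 and 4.20 CPM untreated and 4.79, 5.68 and 5.20 CPM treated, which overlapped (0.12 ± 0.17, adjusted p = 0.612). MOLM-13 gave 2.80, 5.19 and 7.75 CPM untreated and 3.76, 5.07 and 5.79 CPM treated, which overlapped too (-0.10 ± 0.31, adjusted p = 0.795). OCI-AML3, by contrast, went from 0.492, 0.586 and 0.622 CPM to 2.619, 2.772 and 1.605 CPM without overlap (2.03 ± 0.29, adjusted p = 0.00083). In MV-4-11 IFIT1 had 1 read over the 3 untreated libraries and 65 over the treated ones, a ratio of 53.85 with an exact 95% counting interval of 9.33 to 2159.

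Guanylate-binding proteins (GBPs) are GTPases that attack membranes around intracellular pathogens, and 23 of their 27 tested pairs were induced. That is 23 of 40 pairs in all, since GBP1, GBP4 and GBP5 were too low to be tested in many lines. GBP2 was called in each of the 9 of these 10 lines where it was tested. In KASUMI-1 it was at 1.37, 1.47 and 1.26 CPM untreated and 64.0, 64.3 and 67.7 CPM treated, with no overlap and little spread (5.57 ± 0.12, adjusted p = 1.67e-08). In NOMO-1 it started from 46.8, 41.6 and 39.5 CPM and reached 87.2, 101 and 89.3 CPM, a smaller change from a higher level (1.12 ± 0.10, adjusted p = 2.55e-06). In OCI-AML3, where it was not tested, it was at 0.0492, 0.0488 and 0 CPM untreated and 0.281, 0.447 and 0.357 CPM treated. GBP1 had no read in untreated NB-4 and 79 reads after etoposide, at least 25.37-fold higher against a floor of 3 reads over the group.

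**Figure D4:**
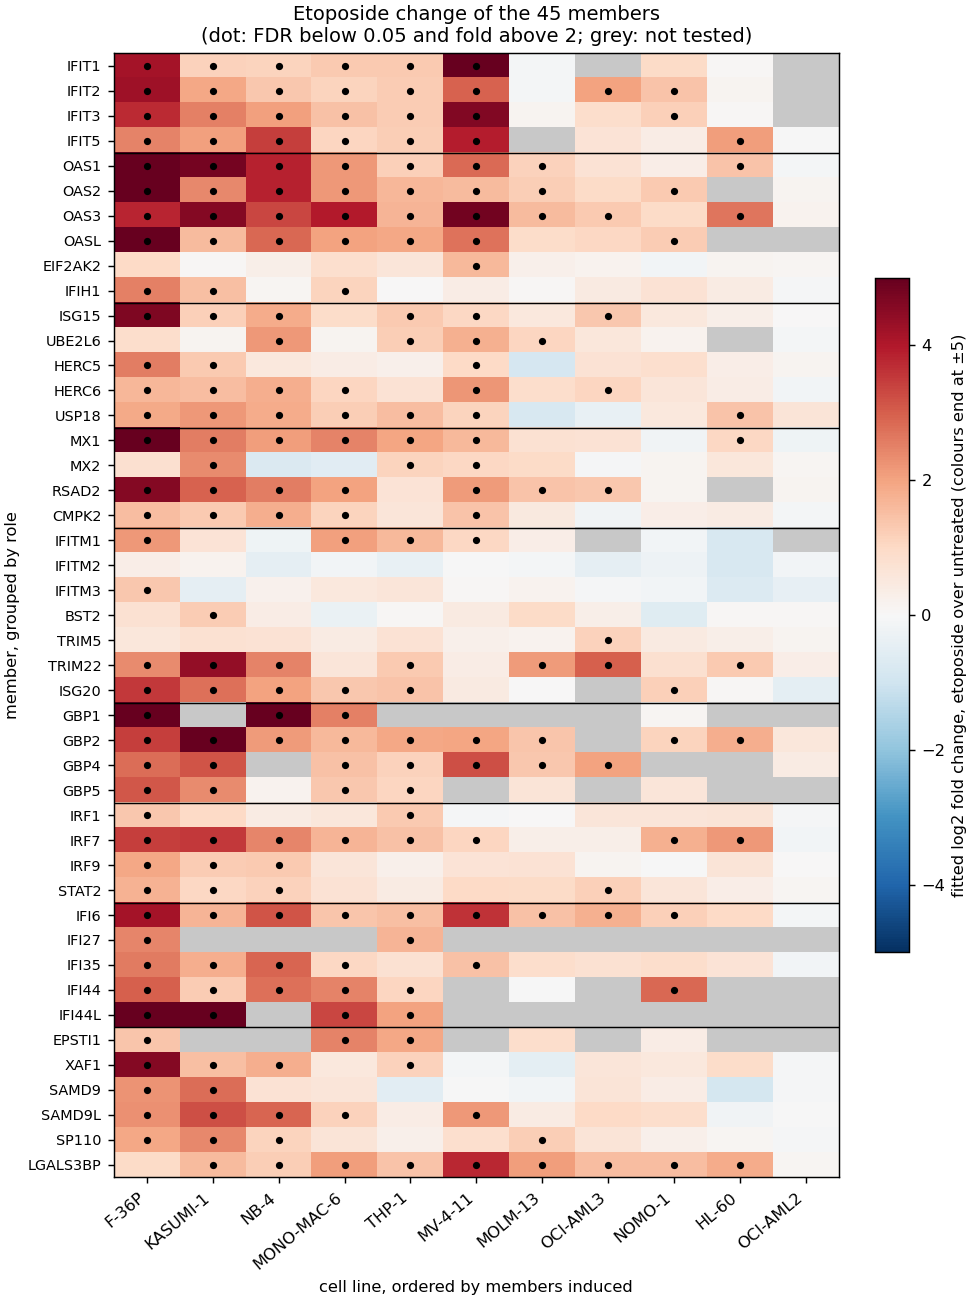
Log2 change of etoposide over untreated for each of the 45 members (rows, grouped by role) in the 11 cell lines (columns, ordered by the number of members called), with colour giving the change up to 5 in either direction, a dot on calls and grey where a member was not tested. Rows such as GBP2, IFI6, LGALS3BP and OAS3 are called in 9 lines, IFITM2 in 0, and the OCI-AML2 column holds no call.

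The proteins IFI6, IFI27, IFI35, IFI44 and IFI44L are known mainly as interferon-induced, IFI6 as a mitochondrial and reticulum membrane protein that protects cells from death, and 26 of their 33 tested pairs were induced. That is 26 of 50 pairs in all, since IFI27, IFI44 and IFI44L were too low to be tested in some lines. IFI6 was called in 9 lines. In MV-4-11 it was at 1.99, 1.42 and 1.36 CPM untreated and 17.8, 19.7 and 20.8 CPM treated (3.60 ± 0.15, adjusted p = 1.84e-14). In F-36P it was at 17.8, 14.8 and 21.0 CPM untreated and 285, 88.4 and 574 CPM treated (4.14 ± 0.56, adjusted p = 0.000132). All treated libraries lay above all untreated ones in both lines, with a wide spread among the treated ones of F-36P. MOLM-13 overlapped, at 0.540, 4.55 and 3.66 CPM against 3.040, 10.999 and 10.195 CPM, and its call was marginal (1.48 ± 0.56, adjusted p = 0.0444). Each treated library there lay above the untreated library of its number. HL-60 was the line without a call (0.99 ± 0.22, adjusted p = 0.00403). IFI44L had no read in untreated KASUMI-1 and 80 after etoposide, at least 26.12-fold higher. IFI27 was tested in 2 lines only, F-36P and THP-1, and called in both.

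ISG15 is attached to other proteins by UBE2L6 and HERC5 and removed by USP18. Of 49 tested pairs (50 in all) of this pathway with HERC6, 26 were induced. ISG15 in F-36P was at 14.5, 14.4 and 14.6 CPM untreated and 323, 103 and 695 CPM treated (4.69 ± 0.58, adjusted p = 7.66e-05). In HL-60 its groups overlapped, at 5.27, 7.38 and 6.01 CPM against 5.41, 9.41 and 7.99 CPM (0.29 ± 0.20, adjusted p = 0.294). UBE2L6 was called in MOLM-13, MV-4-11, NB-4 and THP-1, lines with untreated means of 4.15 (NB-4) to 12.8 CPM (THP-1). In NB-4 it went from 3.35, 3.88 and 5.21 CPM to 18.2, 17.3 and 19.6 CPM (2.15 ± 0.16, adjusted p = 2.72e-08). In KASUMI-1, at 32.96, 35.57 and 37.71 CPM untreated, it stood at 38.3, 42.5 and 35.2 CPM after etoposide, with overlap (0.13 ± 0.10, adjusted p = 0.304). In NOMO-1 none of the 5 genes of this pathway was called, although all 5 were tested.

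MX1 is a GTPase that traps influenza virus, RSAD2 (viperin) makes a chain-terminating nucleotide and CMPK2 is the kinase encoded beside it. With MX2, 22 of their 39 tested pairs (40 in all) were induced. MX1 in MONO-MAC-6 rose from 7.60, 6.37 and 8.04 CPM to 36.8, 41.6 and 43.1 CPM (2.46 ± 0.10, adjusted p = 3.29e-09). In NOMO-1 it was at 1.44, 1.34 and 1.08 CPM untreated and 1.19, 1.15 and 1.06 CPM treated, with overlap (-0.18 ± 0.24, adjusted p = 0.544). MX2 moved in opposite directions between lines. In KASUMI-1, the lowest line, it rose from 0.762, 0.420 and 0.713 CPM to 3.45, 3.29 and 3.08 CPM (2.36 ± 0.23, adjusted p = 2.02e-05). In NB-4 it was at 152, 147 and 136 CPM untreated and at 95.7, 87.8 and 83.7 CPM treated, all lower than before treatment, though within the 2-fold limit (-0.71 ± 0.09, adjusted p = 6.24e-06). MONO-MAC-6 gave a like picture, with 131, 135 and 133 CPM untreated and 90.3, 90.3 and 89.3 CPM treated (-0.57 ± 0.04, adjusted p = 5.89e-07).

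The restriction factors IFITM1, IFITM2, IFITM3, BST2, TRIM5 and TRIM22 with the exonuclease ISG20 had the smallest share induced of the 9 role groups, 20 of 68 tested pairs (70 in all). TRIM22 and ISG20 gave 13 of the 20. TRIM22 in OCI-AML3 was at 43.5, 35.7 and 44.4 CPM untreated and 345, 362 and 266 CPM treated (2.98 ± 0.14, adjusted p = 2.58e-06), the largest change of a tested member in that line. In MV-4-11, where it was already at 136, 139 and 131 CPM, it reached 189, 176 and 157 CPM without being called (0.36 ± 0.06, adjusted p = 4e-05). IFITM2 was called in no line, and with the adjusted p alone was lower in 5, HL-60, NB-4, NOMO-1, OCI-AML3 and THP-1. In HL-60 it was at 236, 233 and 256 CPM untreated and 130, 162 and 130 CPM treated, with no overlap (-0.78 ± 0.10, adjusted p = 0.000106). IFITM1 was lower there too, from 81.6, 86.6 and 89.2 CPM to 49.3, 58.4 and 39.4 CPM (-0.81), within the 2-fold limit. BST2 was called in KASUMI-1, IFITM3 in F-36P and TRIM5 in OCI-AML3, a single line each. The 3 IFITM genes are related paralogs, so reads that fit several of them could be lost from counting and their values are less certain.

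LGALS3BP was called in 9 lines and belongs to the remaining 6 members, with XAF1, SAMD9, SAMD9L, SP110 and EPSTI1, of whose 55 tested pairs (60 in all) 27 were induced. Its largest change was in MV-4-11, the line with the lowest level, from 0.262, 0.456 and 0.365 CPM to 5.01, 4.94 and 5.10 CPM (3.78 ± 0.24, adjusted p = 1.58e-11). F-36P was the exception without a call, at 257, 240 and 238 CPM untreated and 419, 328 and 676 CPM treated (0.95 ± 0.22, adjusted p = 0.00376). LGALS3BP was also the 1 member called in all 4 lines with the fewest calls. XAF1, which binds inhibitors of apoptosis, went in F-36P from 1.80, 2.20 and 2.78 CPM to 70.2, 24.1 and 70.7 CPM (4.60 ± 0.42, adjusted p = 1.3e-05). In MOLM-13 it was at 44.04, 51.37 and 59.32 CPM untreated and 39.2, 33.5 and 36.5 CPM treated, lower by less than 2-fold (-0.50 ± 0.11, adjusted p = 0.00321). Exons of a gene on the opposite strand overlap 38.32% of the exon length of XAF1, and whether reads were counted by strand is not given in the sources used here.

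Of the 4 transcription factors, 17 of 40 pairs were induced, all 40 being tested. IRF7, which amplifies type I interferon production, gave 8 of the 17. In KASUMI-1 it was at 0.559, 0.841 and 0.877 CPM untreated and 6.339, 11.005 and 9.479 CPM treated (3.55 ± 0.28, adjusted p = 5.46e-06). In MOLM-13 it was at 3.44, 3.12 and 4.05 CPM untreated and 3.70, 4.62 and 4.56 CPM treated, with overlap (0.28 ± 0.16, adjusted p = 0.166). OCI-AML3, at 1.43, 1.95 and 1.34 CPM against 1.68, 1.88 and 2.23 CPM, overlapped as well (0.30 ± 0.21, adjusted p = 0.295). STAT2 was called in F-36P, KASUMI-1, NB-4 and OCI-AML3 and passed the adjusted p alone in all 10 lines. In OCI-AML3 it rose from 30.4, 34.0 and 36.6 CPM to 74.2, 75.2 and 80.9 CPM (1.19 ± 0.09, adjusted p = 2.74e-05). IRF9, the DNA-binding part of ISGF3, was called in F-36P (1.94 ± 0.16), KASUMI-1 (1.29 ± 0.19) and NB-4 (1.31 ± 0.24). IRF1 was called in F-36P (1.36 ± 0.16) and THP-1 (1.30 ± 0.14), and 0.98 in KASUMI-1 lay just under the 2-fold limit.

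**Figure D5:**
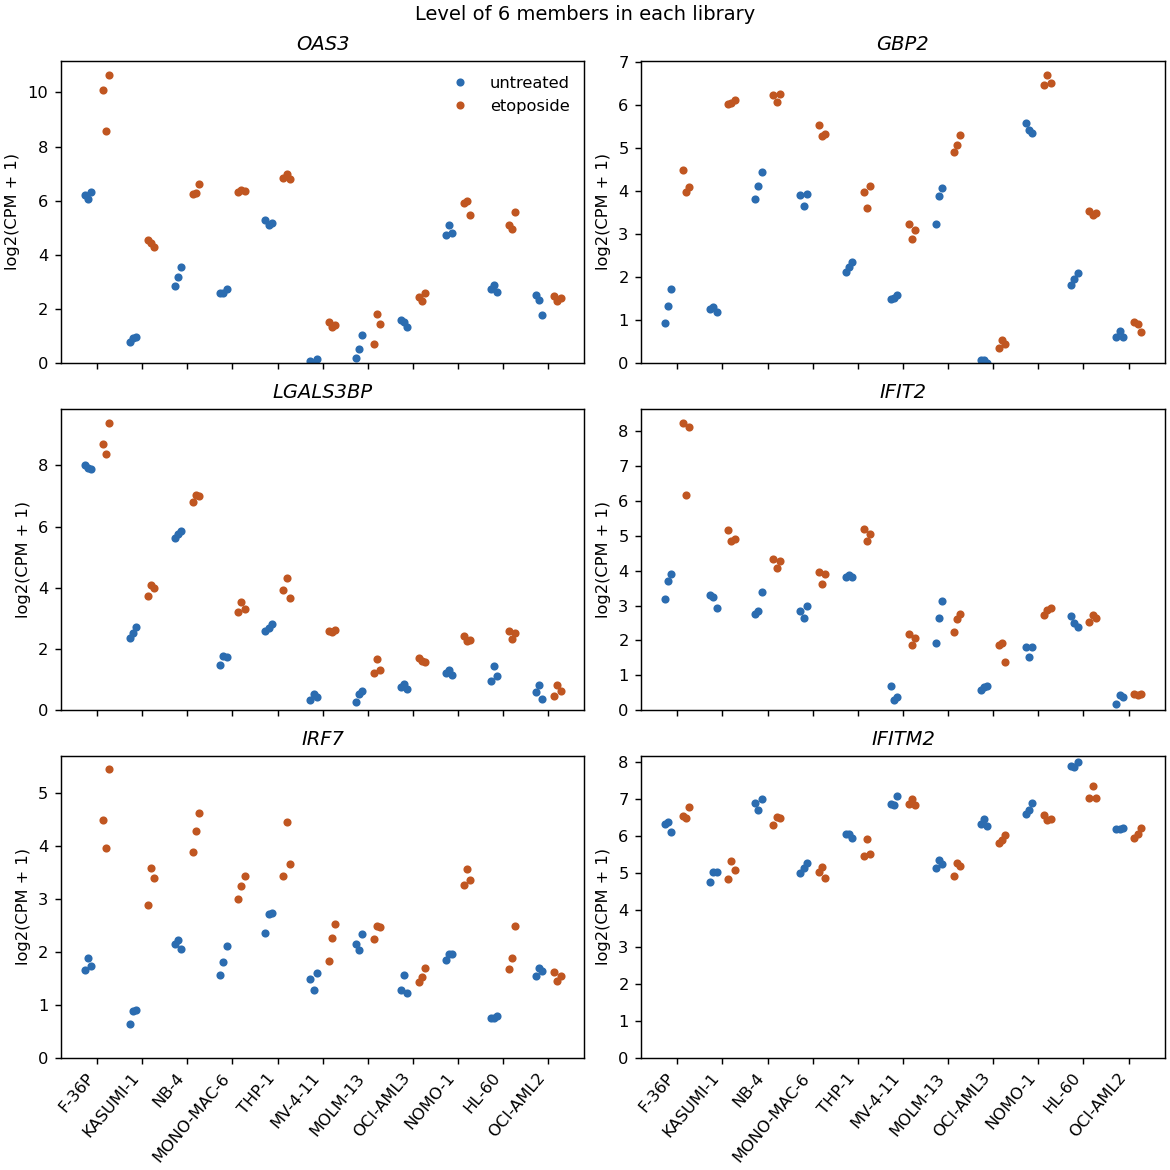
log2(CPM + 1) of OAS3, GBP2, LGALS3BP, IFIT2, IRF7 and IFITM2 in every library, with cell lines on the horizontal axis, points for single libraries and colours for untreated and etoposide. OAS3, GBP2 and LGALS3BP separate in most lines, IFIT2 overlaps in HL-60 and MOLM-13, IRF7 overlaps in MOLM-13 and OCI-AML3, and treated IFITM2 lies below untreated in HL-60.

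Counting lines for each member, 4 members were called induced in 9 lines (GBP2, IFI6, LGALS3BP and OAS3) and 12 in 7 or 8 lines. A further 15 were called in 4 to 6 lines, 9 in 2 or 3, 4 in 1 line and 1 in 0 lines. In the 4 lines with the fewest calls, HL-60, MOLM-13, NOMO-1 and OCI-AML3, 24 members were called in at least 1 line but only 5 in at least 3 of them, LGALS3BP, OAS3, TRIM22, IFI6 and GBP2. In the 6 lines with the most calls, 43 members were called in at least 1 and 13 in all 6. The lines were split here by the count itself, so this is a description. Lines called were not counted in this way for all genes. The shares of all genes induced in single lines, such as 5.34% in HL-60 and 24.3% in F-36P, do not give such counts. Whether the members were called in more lines than other genes was thus not tested. The calls of the low-count lines differed in part. NOMO-1 called IFI44 (from 0.925, 0.645 and 0.756 CPM to 4.38, 7.02 and 5.86 CPM), which was tested without a call in MOLM-13 and was too low to be tested in HL-60 and OCI-AML3, and IFIT2 was called in NOMO-1 and OCI-AML3 but not in HL-60 and MOLM-13.

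Whether the change itself differed between lines was tested in 1 fit of the 60 libraries of the 10 lines. The interaction of line and treatment passed for 44 of 45 members, against 74.5% of all genes tested, the exception being IFI27 (adjusted p = 0.146). Each line's change was also set against the mean change of the other 9 lines and called where the adjusted p was below 0.05 and the difference above 2-fold. F-36P had 22 members with a larger change and 0 with a smaller one (8.53% and 2.84% of all genes tested), and KASUMI-1 had 11 and 0 (5.50% and 2.28%). Without etoposide library 2 of F-36P, 27 members had a larger change in that line. NB-4 had 7 and 2 (3.00% and 2.19%), and MV-4-11 had 6 and 2 (2.09% and 0.991%). On the other side MOLM-13 had 0 members with a larger change and 14 with a smaller one (1.63% and 3.90%), and HL-60 had 0 and 8 (0.786% and 2.10%). NOMO-1 had 1 and 11 (0.641% and 5.17%), and OCI-AML3 had 1 and 7 (1.02% and 3.00%). THP-1 had 0 and 5 (0.971% and 5.54%). MONO-MAC-6 had 1 and 2 (0.491% and 3.44%), a share of smaller changes close to that of all genes. Of these calls, 4 fell on the 7 members without reads in some line, GBP5 in MOLM-13, NB-4 and NOMO-1 and IFITM1 in HL-60. Many contrasts of these 7 members had an SE too large for any call, so a lack of calls there does not show a like change. An example is OAS2 in F-36P, with a difference of 5.52 and an SE, worked back from the test statistic, of 11187400.

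Several members set 1 line apart. The change of XAF1 was 4.65 in F-36P against a mean of 0.75 in the other 9 lines on the log2 scale, a difference of 3.90 (95% interval 3.37 to 4.44, adjusted p = 8.16e-18). GBP2 differed by 3.51 in KASUMI-1, IFIT3 by 3.17 in MV-4-11 and ISG15 by 3.70 in F-36P. TRIM22 was above the other lines by 2.84 in KASUMI-1 and 1.19 in OCI-AML3 and below them by 1.65 in MV-4-11. In the lines with few calls, OAS1 changed by 0.33 in NOMO-1 against 2.65 elsewhere, a difference of -2.32 ± 0.41 (SE, adjusted p = 1.31e-05). IFIT2 differed by -1.89 in MOLM-13 and -1.68 in HL-60, IRF7 by -1.67 in MOLM-13 and -1.74 in OCI-AML3, and MX2 by -1.39 in NB-4 and -1.29 in MONO-MAC-6.

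The rest of the pathway is given by counts. Of 22 interferon genes, only IFNB1 passed the filter on low counts in any line, and that in F-36P, where it went from 3 reads over the untreated libraries to 79 over the treated ones (log2 change 4.34 ± 0.71, adjusted p = 0.00044). Elsewhere IFNB1 had at most 28 reads over a group of 3 libraries, with 8 untreated and 28 treated reads in THP-1, 2 and 17 in MONO-MAC-6 and 2 and 13 in NB-4. IFNL1, a type III interferon named after its values were seen, had 0 untreated and 150 treated reads in F-36P and did not pass the filter. None of 9 receptor and kinase genes was called in any line.

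A list of 36 other interferon-stimulated genes, which are not members, followed a like order of lines. Shares of all genes called induced stand in brackets. In F-36P 27 of its 35 tested genes were induced (24.3%), in KASUMI-1 16 of 31 (14.6%) and in NB-4 14 of 32 (13.2%). In MONO-MAC-6 it was 10 of 35 (8.53%), in MV-4-11 10 of 32 (12.5%) and in THP-1 8 of 34 (6.38%). The counts were 7 of 33 in OCI-AML3 (7.18%), 5 of 34 in NOMO-1 (8.34%) and 4 of 31 in HL-60 (5.34%). MOLM-13 had 4 of 32 (8.59%) and OCI-AML2 0 of 32 (0%). This list also held repressed calls, where the members had none. They were PNPT1 and TRIM14 in KASUMI-1, TDRD7 and TRIM14 in NOMO-1 and TDRD7 in THP-1. Of all genes, 6.52%, 4.43% and 3.46% were repressed in these lines, so the few calls do not set the list apart. A list of 14 NF-kB target genes gave another order, and the shares of all genes in brackets above apply to its counts too. It had 12 of 13 induced in HL-60, the line with the fewest members called, 12 of 14 in MONO-MAC-6, 11 of 13 in KASUMI-1, and 9 of 13 in F-36P. NOMO-1 had 9 of 14, MV-4-11 8 of 13, THP-1 6 of 13, NB-4 and MOLM-13 4 of 14 each, OCI-AML3 2 of 13 and OCI-AML2 0 of 13. TNFAIP3 of this list was repressed in NB-4, beside 4.82% of all genes. What part any of these genes has in the change of the members was not tested.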

How the data were processed

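RNA from 66 samples (11 AML cell lines, untreated or given etoposide for 24 hours, 3 libraries per group) was sequenced from a stranded mRNA kit. The deposited values are raw counts of reads per gene. The authors checked reads with FastQC (0.11.5) and made the counts with STAR (2.5.3a, GeneCounts) on GRCh38.p7 with a gencode annotation. Which strand setting was kept is not given in the sources used here, and reads that map to several genes are not counted. Versions are from the submitters' processing notes. Names and positions come from gencode release 44, exons of 6 members overlap another gene on the same strand (at most 23.86% of exon length, IRF9) and exons of 15 overlap one on the opposite strand (at most 38.32%, XAF1). Depth was 17997404 to 24101670 reads per library, and intervals of read ratios (95%, exact) and floors of 3 reads cover counting error only, whereas intervals of fitted differences come from the spread between libraries. SEs and the intervals of fitted differences were worked back from the log2 change and the F statistic of its test, so they are approximate. They are not reliable where a group had no reads or the change was very small. Groups came from the labels. The 45 members and all lists were chosen with earlier results of these data known.

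Each line was tested with edgeR (4.0.16, R 4.3.3; glmQLFit, glmQLFTest, TMM scaling, filterByExpr with a count minimum of 10 and a total of 15), with Benjamini-Hochberg adjustment over all genes tested. Calls needed an adjusted p below 0.05 and a fold above 2, the study's thresholds. The difference between lines was fitted on 60 libraries and the untreated level on 33. CPM values are scaled by TMM, per line for the etoposide comparison and over the 33 libraries for untreated levels, so the 2 sets differ slightly. Members are all accounted for. Named in full are the 8 called induced in most lines, the 5 with the largest range of untreated log2(CPM + 1) and the transcription factors. Other members given by value were chosen after their values were seen. The fits were tested on simulated data. Same-numbered libraries deviated together (every correlation above 0.1) in NB-4 alone (0.265, 0.22 and 0.152), where a fit with the number as a block called the same number of members, 29. MOLM-13 came nearest below that limit, with 0.231, 0.0892 and 0.149. Alternatives were DESeq2 (1.42.0), its size factors, no filter on low counts, the adjusted p alone, 1 fit of 60 libraries, a replicate block, each replicate left out, log2(CPM + 1), without F-36P, with OCI-AML2 and, added after seeing the data, without library 2 of etoposide-treated F-36P. Motifs were searched in RefSeq promoter windows with Python (3.11.15). Some marker and pathway genes are not reported here.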

Additional observations from a re-analysis of the deposited data

Results flagged for a closer look

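The change of the members under etoposide differed between the 10 lines for 44 of 45 members in the interaction test, as it did for 74.5% of all genes. Against the mean of the other 9 lines, more members changed by a larger amount in F-36P (22, beside 8.53% of all genes), KASUMI-1 (11, beside 5.50%), NB-4 (7, beside 3.00%, with 2 smaller) and MV-4-11 (6, beside 2.09%, with 2 smaller). More changed by a smaller amount in MOLM-13 (14, beside 3.90%), NOMO-1 (11, beside 5.17%, with 1 larger), HL-60 (8, beside 2.10%), OCI-AML3 (7, beside 3.00%, with 1 larger) and THP-1 (5, beside 5.54%). In THP-1 the count fell to 3 without F-36P and with OCI-AML2, so its direction is less certain. MONO-MAC-6 had 2 smaller, a share near the 3.44% of all genes, and 1 larger, which became 2 with no filter on low counts and 3 without F-36P and fell to 0 without replicate 1 or replicate 3, so no direction is given for it. Among called differences, XAF1 in F-36P was the largest upward, 3.90 on the log2 scale, and OAS1 in NOMO-1 the largest downward, -2.32. Some differences that were not called were larger in size, such as IFIT1 in MV-4-11 (3.98, adjusted p = 0.103 by edgeR) and IFI44 in HL-60 (-3.52, adjusted p = 0.297 by edgeR). Larger still were some of members without reads in some group, such as GBP1 in NB-4 (5.74), OAS2 in F-36P (5.52) and IFI44L in KASUMI-1 (4.97). Their SEs were too large for any call, so they were in effect not tested. Each line had its own dose, and its part in these differences cannot be told apart from that of the line.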

How the results depend on the processing

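The 225 induced calls of members over the 10 lines became 224 with DESeq2's size factors (224 shared), 223 with DESeq2, 239 with no filter on low counts (224 shared), 237 in 1 fit of 60 libraries (222 shared) and 222 to 228 with a replicate left out (213 to 220 shared), and no shared call changed sign. With the replicate block there were 226 (225 shared), and no result other than the OCI-AML3 count below moved by over 1.5 times. With the adjusted p alone HL-60 had 15 induced members, MOLM-13 23, NOMO-1 26 and OCI-AML3 23, and 16 pairs were repressed. Medians as differences of log2(CPM + 1) were 0.34 in HL-60, 1.22 in KASUMI-1, 0.95 in MONO-MAC-6, 0.93 in MV-4-11, 1.14 in NB-4, 0.60 in OCI-AML3 and 1.07 in THP-1. The pseudocount makes these smaller for low genes.

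Counts of members that changed more or less than in the other lines were small and moved most. With no filter on low counts MONO-MAC-6 had 2 larger, MV-4-11 10 larger and OCI-AML3 11 smaller. Without F-36P MONO-MAC-6 had 3 larger, NB-4 11 larger, MV-4-11 1 smaller and THP-1 3 smaller, and with OCI-AML2 THP-1 had 3 smaller. The replicate block gave 11 smaller in OCI-AML3. Counted over members with reads in every group, a choice made after seeing the data, NB-4 had 1 smaller and MV-4-11 2 higher untreated. DESeq2 gave 4 lower untreated members in MONO-MAC-6 and 5 in NOMO-1. Leaving out replicates 1 to 3 in turn, or library 2 of etoposide-treated F-36P (also chosen after seeing the data), gave 0 to 1 smaller in F-36P, 5 to 10 in HL-60, 0 to 1 in KASUMI-1, 8 to 19 in MOLM-13, 1 to 3 in NB-4 and 4 to 11 in OCI-AML3. The counts of larger changes ran from 0 to 1 in MONO-MAC-6, NOMO-1 and OCI-AML3, 3 to 9 in MV-4-11 and 4 to 7 in NB-4. Lower untreated members in F-36P ran from 2 to 4. Without replicate 1, 2 pairs were called repressed, SAMD9 in HL-60 (-1.01) and HERC5 in MOLM-13 (-1.12), against 0 without replicate 2 or 3. Without library 2 of etoposide-treated F-36P, 42 members were induced in that line, 27 changed by more than in the other lines and 11 by less in OCI-AML3. The causes were not tested. Members with few reads in a line could not be tested there, so their lack of calls is no sign of no change.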
